A study of Oryza sativa with 6 samples.

Results

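The genes described here encode enzymes of chlorophyll metabolism and proteases or chaperones of the FtsH and Clp families, which work in plastids and, for part of the FtsH family, in mitochondria. They were measured in rice (Oryza sativa) leaf blades. They were chosen by name: 28 genes of the gene table carry a symbol or synonym for an enzyme of chlorophyll synthesis or breakdown (GSA, CHLH, CHLI, CHLD, DVR, PORA, PORB, CHLG, CAO, NYC1, NOL, SGR and PAO6) or for an FTSH or Clp protein. Of these, 25 were paired with a probe set of their own, out of 17905 genes measured. DVR, PAO6 and the plastid-encoded clpP were not paired with one and are not analysed here. PAO6 is a rice polyamine oxidase, which shares only the abbreviation with pheophorbide a oxygenase. The rule also asked for HEMA, HEML, CPOX, CHLM, CRD1, DEGP and CLPR and found no gene under those names, so the 25 genes are not whole pathways.

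The lines compared were both resistant to hygromycin and grown in hydroponic culture. One was RK16331-13, which overexpresses Os-LBD37, a member of the LOB-domain family of transcription factors, on 3 arrays. The other was an empty vector control line, also on 3 arrays. RNA came from the 5th and 6th leaf blades, collected by a date set on the appearance of the 8th leaf blade. Each group is a single line, and whatever else differs between them cannot be told apart from the transgene. The promoter of the transgene and the number of plants pooled are not given in the sources used here, and the level of Os-LBD37 itself is not analysed here. The labels speak of independent hybridizations and not of separate plants, so p-values rest on the spread among these arrays, which may be technical.

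Chlorophyll is built from glutamate by way of aminolevulinate and protoporphyrin. A chelatase inserts magnesium, light-driven reductases and a synthase finish chlorophyll a, and an oxygenase makes chlorophyll b. Breakdown in ageing or shaded leaves turns chlorophyll b back to a, removes the magnesium and opens the ring. In the same organelle, FtsH proteases of the membranes clear damaged photosystem proteins, and Clp proteases of the stroma take apart soluble proteins that Hsp100 chaperones unfold for them.

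The share of rice probe sets above background was 54.7 to 55.1 percent in the overexpressor and 50.9 to 55.4 percent in the empty vector line. Background was set on each array at the level that 95 percent of 132 controls foreign to rice stayed under. Of the leaf blade markers, CAB2R, RCA and RBCS were above it on all 6 arrays. Lsi2 of root, the meristem marker OSH1 and the endosperm marker GLUA1 were above it on none, while Lsi1 of root and the endosperm genes Wx and GLUA2 were above it on all. Wx was at 434, 540 and 550 in the overexpressor, against 140, 176 and 65.9 in the empty vector line, without overlap (log2 change 1.95 ± 0.37, limma adjusted p = 0.0798). The summed intensity of 3 meristem and panicle markers was 39.1 to 45.6 in the overexpressor against 589 to 1030.1 in the empty vector line, which came from Lhs1. Lhs1 was under background on each overexpressor array and at 564, 1020 and 784 in the empty vector line. With overexpressor arrays counted at their background it was at least 17.1-fold lower there (limma adjusted p = 0.00794 over all genes, on the values as deposited). The part of Wx and Lhs1 in the results below was not tested. Both replicate 2 arrays stood apart from the other arrays of their line. Values without them stand beside the members whose replicate 2 departures were large.

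Between the lines, 0 of the 25 genes passed (limma, Benjamini-Hochberg adjusted p under 0.05 over all genes), where 0.519 percent of all genes did. An ordinary test without moderated variance also called 0. At an unadjusted p under 0.05 there were 4 genes, SGR, CLPC3, CLPD2 and NYC1, or 16 percent against 14.2 percent of all genes. The lines did not overlap for 5 genes with lower values in the overexpressor, where 9.36 percent of all genes behaved so, and for 1 gene, SGR, with higher values, where 11.8 percent did. Of the 25 genes, 19 had log2 changes below 0 and 6 above 0, with a median of -0.18. The SD between arrays of a line of the members' median log2 intensity was 0.23, larger than that shift. It is the spread of a level on single arrays and not the error of the median change, which was not estimated. Of all genes, 49.3 percent were below 0, with a median of 0.01. Among genes with a mean intensity over 1000 the median was -0.02, and the 20 members of that brightness had a median of -0.17. After quantile normalization 16 of the 25 were below 0. A log2 change is always overexpressor minus empty vector on the log2(intensity + 16) scale, with the standard error (SE) of the fit. In whole leaf blades, fewer cells of a type and less RNA per cell cannot be told apart.

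**Figure D1:**
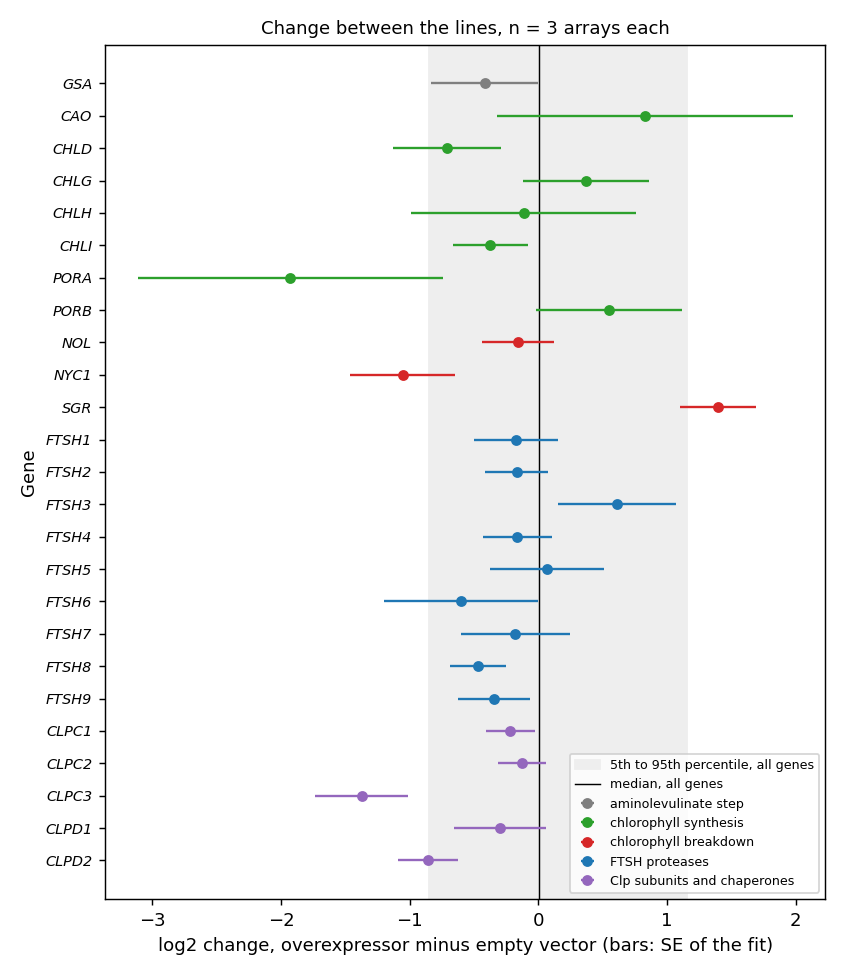
Log2 change of each gene between the overexpressor and the empty vector line (points, n = 3 arrays per line) with the SE of the fit as bars, coloured by role. The grey band spans the 5th to 95th percentile of all genes. SGR at 1.39 lies right of the band, PORA, CLPC3 and NYC1 lie left of it, and CLPD2 lies at its left edge.

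Of the 3 measured genes of chlorophyll breakdown, SGR had higher values in the overexpressor, NYC1 had lower values, and NOL differed little. SGR encodes the Stay-green protein, the dechelatase that takes magnesium out of chlorophyll a. Its intensity was 3202, 2379 and 1628 on the overexpressor arrays, against 1061, 752 and 827 on the empty vector arrays. Every overexpressor array was thus above every empty vector array. The means were 2403 ± 787 in the overexpressor and 880.0 ± 162 in the empty vector line (SD, n = 3 each). The log2 change was 1.39 ± 0.29, or 2.63-fold, and did not pass (limma adjusted p = 0.0934).

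The gene has another probe set of a type specific to 1 transcript, and its values showed the same separation. They were 1346, 946 and 602 in the overexpressor, against 331, 167 and 279 in the empty vector line. Its log2 change was 1.81 ± 0.38. SGR differed little between replicate 2 and the other replicates. On the log2 scale, replicate 2 minus the mean of replicates 1 and 3 was 0.06 in the overexpressor and -0.31 in the empty vector line. With the replicate number as a block, its adjusted p was 0.0536, and over 16 alternatives the adjusted p ranged from 0.0536 to 0.274.

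NYC1 encodes chlorophyll b reductase, which starts the return of chlorophyll b to chlorophyll a. Its intensity was 6843, 3117 and 5868 in the overexpressor, against 13496, 6308 and 13189.8 in the empty vector line. The lines overlapped in 1 place, where empty vector replicate 2 lay below overexpressor replicate 1. Between arrays of the same replicate number the log2 difference was -0.98, -1.01 and -1.17. The log2 change was -1.05 ± 0.41, a 2.07-fold lower level in the overexpressor, and did not pass (limma adjusted p = 0.304).

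With replicate 2 as a batch term NYC1 was the 1 gene of the 25 that passed (limma adjusted p = 0.0331), where 2.76 percent of all genes passed. With the replicate block 0 of the 25 passed, against 1.31 percent of all genes, and NYC1 had an adjusted p of 0.0637. Without both replicate 2 arrays 0 passed, against 1.33 percent, and NYC1 had a log2 change of -1.07 (limma adjusted p = 0.0597). In that setting of 2 arrays per line, 16 of the 25 genes had lines that did not overlap, where 51.8 percent of all genes did. Over 15 alternatives its adjusted p ranged from 0.0331 to 0.605. These fits were chosen with the departure of replicate 2 known.

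NOL encodes the other chlorophyll b reductase subunit, which in rice acts in a complex with NYC1. Its intensity was 1525, 1306 and 1855 in the overexpressor, against 1237, 1840.1 and 2269.8 in the empty vector line. The lines overlapped, and the log2 change was -0.16 ± 0.28 (limma adjusted p = 0.857). NOL thus had a change close to 0 beside the values of its partner. The difference between the 2 changes was not tested.

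**Figure D2:**
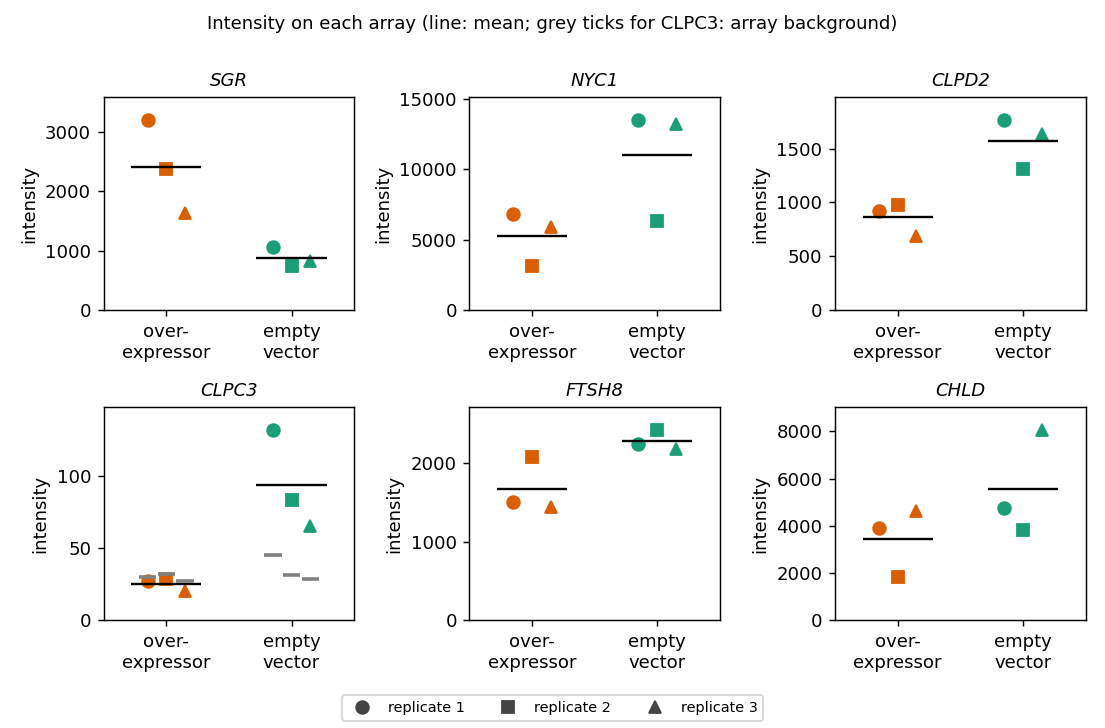
Intensity of 6 genes on each array of the overexpressor (left) and the empty vector line (right), with the line mean as a bar and the replicate number as the marker shape. The lines do not overlap for SGR, CLPD2, CLPC3 and FTSH8 and overlap for NYC1 and CHLD. Grey ticks show the background of each array for CLPC3, which reaches it on no overexpressor array.

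Among synthesis genes, none had lines that did not overlap. GSA encodes the aminotransferase that forms aminolevulinate. It was at 8259, 4179 and 11772 in the overexpressor and at 8973, 7755 and 13962 in the empty vector line, with a log2 change of -0.42 ± 0.41 (limma adjusted p = 0.721). Leaving out overexpressor replicate 2 gave -0.0065, and leaving out replicate 2 of both lines gave -0.18. CHLH, CHLI and CHLD encode the 3 subunits of magnesium chelatase. For CHLD the values were 3916, 1842 and 4612 in the overexpressor, against 4769.7, 3816 and 8073 in the empty vector line, a log2 change of -0.71 ± 0.42 (limma adjusted p = 0.519). It was lower in the overexpressor in all 3 pairs of the same replicate number, and the lines overlapped. CHLI, for the chelatase's ATPase subunit, had a log2 change of -0.37 ± 0.29. Neither CHLI nor CHLD changed direction in any of 16 alternatives, but the size depended on overexpressor replicate 2. Without that array the change was -0.31 for CHLD and -0.13 for CHLI, and without both replicate 2 arrays it was -0.54 for CHLD and -0.13 for CHLI.

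CHLH, for the subunit that holds the porphyrin, was at 1569, 10862 and 1849 in the overexpressor, against 1812, 9418 and 2355 in the empty vector line. Replicate 2 was high in both lines, and the log2 change between the lines was -0.12 ± 0.87 (limma adjusted p = 0.974), or -0.28 without both replicate 2 arrays. PORA and PORB encode the light-dependent protochlorophyllide reductases. PORB was at 5560.4, 10803 and 9536 in the overexpressor, against 3540.4, 14353 and 3596 in the empty vector line, a log2 change of 0.55 ± 0.57 (limma adjusted p = 0.733). Without replicate 2, both PORB arrays of the overexpressor lay above both of the empty vector line, with a log2 change of 1.03 (limma adjusted p = 0.136).

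PORA, which in Arabidopsis is the form of dark-grown seedlings, was at 3.88, 63.6 and 82.1 in the overexpressor, against 97.6, 1302 and 41.2 in the empty vector line. It exceeded background in replicates 2 and 3 of the overexpressor and in all 3 replicates of the empty vector line. Its log2 change of -1.93 ± 1.19 did not pass (limma adjusted p = 0.541) and was -0.59 without empty vector replicate 2, the array with 1302, and -0.87 without both replicate 2 arrays. CHLG, for chlorophyll synthase, had a log2 change of 0.37 ± 0.49, which was 0.30 without both replicate 2 arrays and -0.09 without that of the empty vector line alone.

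CAO, for the oxygenase that makes chlorophyll b, was at 1158, 9931 and 1655 in the overexpressor, against 607, 8038 and 681 in the empty vector line. The overexpressor array had the higher value in each of the 3 pairs of the same number, while the spread between replicates was larger than the difference between lines. The log2 change was 0.83 ± 1.15 (limma adjusted p = 0.811), 1.09 without both replicate 2 arrays (adjusted p = 0.0905) and -0.12 without overexpressor replicate 2. Over 15 alternatives its adjusted p ranged from 0.0905 to 0.977. The gene table also gives CAO the name Lls1, which in maize belongs to pheophorbide a oxygenase of breakdown.

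The 14 protease genes comprised 9 FTSH genes and 5 genes for Hsp100 chaperones of Clp, with 12 log2 changes below 0 and 2 above. All 5 Clp genes had changes below 0 as deposited, and CLPC1 and CLPC2 turned to 0.01 and 0.10 after quantile normalization. CLPD2 encodes a chaperone of the ClpD type, whose Arabidopsis counterpart is induced by drought and ageing. It was at 925, 976 and 687 in the overexpressor, against 1767, 1310.0 and 1637 in the empty vector line. All overexpressor arrays were below all empty vector arrays, with means of 863 ± 154 in the overexpressor and 1572 ± 236 in the empty vector line (SD, n = 3 each). The log2 change was -0.86 ± 0.23, a 1.81-fold lower level in the overexpressor, and did not pass (limma adjusted p = 0.159). The adjusted p lay between 0.0781 and 0.412 over 16 alternatives, with the lowest when both replicate 2 arrays were left out. CLPD1, of the same type, was at 5261, 2428 and 2477 in the overexpressor, against 5158, 3675 and 3111 in the empty vector line. Its lines overlapped, and its log2 change was -0.30 ± 0.36 (limma adjusted p = 0.774).

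CLPC1, CLPC2 and CLPC3 encode chaperones of the ClpC type, which deliver substrates to the Clp protease. CLPC3 was at 27.3, 28.7 and 20.0 in the overexpressor, under background on each array, against 132, 83.8 and 65.8 in the empty vector line, above background on each. It was at least 2.33-fold lower in the overexpressor, with measured means of 25.3 ± 4.67 there and 94.0 ± 34.5 in the empty vector line (SD, n = 3 each), and did not pass (limma adjusted p = 0.146). For that bound, an overexpressor array below its background was counted at the background.

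The other ClpC genes had bright probe sets and small differences. CLPC1 was at 18296, 17653 and 18638 in the overexpressor, against 19910.5, 20503 and 23142 in the empty vector line. CLPC2 was at 20983, 22809.9 and 21875 in the overexpressor, against 24198, 23248 and 24166 in the empty vector line. Neither gene's lines overlapped, but the log2 changes were only -0.22 ± 0.19 and -0.13 ± 0.18, and after quantile normalization the sign was the other way. These 2 genes are among the 5 without overlap, and after quantile normalization 4 of the 25 genes, SGR included, had lines that did not overlap, against 21.3 percent of all genes.

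FTSH genes encode membrane-bound metalloproteases, some of plastids and others of mitochondria, and the tables do not say which is which. FTSH2 was at 15055, 25031 and 16863 in the overexpressor, against 19709.6, 21487 and 21359 in the empty vector line. FTSH1 was at 8256, 17216 and 10759 in the overexpressor, against 10118, 16543 and 13099.5 in the empty vector line. Both had log2 changes of -0.17, with SEs of 0.25 and 0.33, and that of FTSH2 turned to 0.05 after quantile normalization. In Arabidopsis, proteins of these names belong to the thylakoid complex that clears damaged photosystem II protein.

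FTSH8 was the 1 FTSH gene whose lines did not overlap. It was at 1499.7, 2075 and 1436 in the overexpressor, against 2249.8, 2427 and 2179.5 in the empty vector line. Its log2 change was -0.47 ± 0.22 (limma adjusted p = 0.394). FTSH3 had the largest positive change of the protease genes with all arrays, 0.61 ± 0.46 (limma adjusted p = 0.629). It was at 227, 184 and 355 in the overexpressor and at 271, 81.1 and 166 in the empty vector line. In replicate 1 the overexpressor was the lower of the lines. The change of FTSH3 was 0.39 without both replicate 2 arrays. Without empty vector replicate 2 alone, the array with 81.1, it was 0.20, and that of FTSH5 was then larger, at 0.56.

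The remaining FTSH genes had log2 changes of 0.07 ± 0.45 for FTSH5, -0.17 ± 0.27 for FTSH4, -0.18 ± 0.42 for FTSH7, -0.34 ± 0.28 for FTSH9 and -0.60 ± 0.60 for FTSH6. FTSH7 was at 2901, 7509.7 and 2781 in the overexpressor, against 3883, 6143 and 3684 in the empty vector line, highest in replicate 2 of both. Without both replicate 2 arrays the change was -0.41 for FTSH7 and 0.35 for FTSH5.

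FTSH6 was dim and its probe sets differed. On the probe set used, of a type that can cross-hybridize, it was at 17.1, 44.0 and 4.54 in the overexpressor, against 19.0, 101 and 18.8 in the empty vector line, above background on replicate 2 of each line. On its other probe set it was at 7.88, 8.66 and 4.43 in the overexpressor, under background on each array, against 73.4, 76.0 and 7.02 in the empty vector line, above background on replicates 1 and 2. That probe set gave a log2 change of -1.33 ± 0.54 (limma adjusted p = 0.333 over genes with such specific probe sets). The one used gave -0.42 without both replicate 2 arrays and -0.018 without empty vector replicate 2 alone.

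FTSH4 and FTSH5 are neighbours on chromosome 1 in assembly ASM3414082v1. In replicate 2 of the empty vector line both exceeded the mean of replicates 1 and 3, by 0.65 and 1.47 on the log2 scale, while in the overexpressor FTSH4 was at -0.43 and FTSH5 at 0.61.

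**Figure D3:**
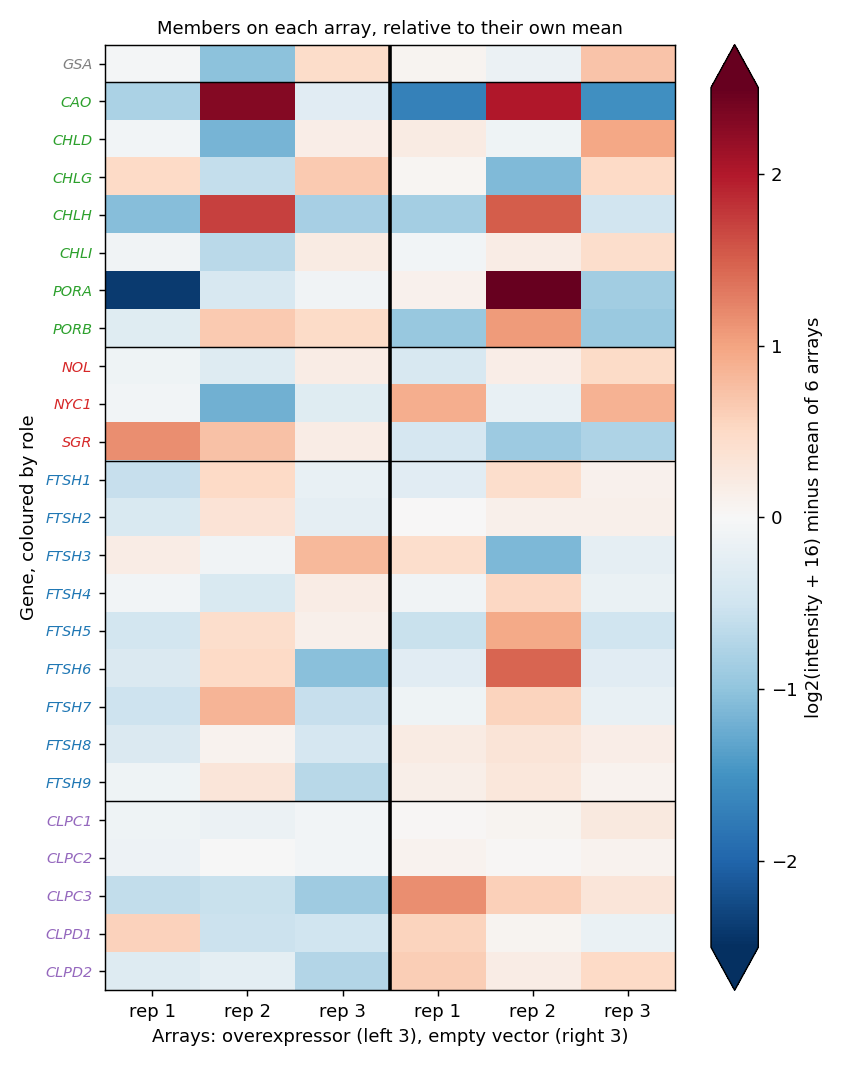
Each gene's log2(intensity + 16) on each array minus its mean over the 6 arrays, with the overexpressor on the left and the empty vector line on the right. SGR, NYC1, CLPC3 and CLPD2 differ from side to side, while CAO and CHLH are high in the replicate 2 column of both lines and CHLG is low there.

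The replicate 2 arrays departed further from the rest of their line for the chlorophyll genes than for all genes, by the medians. The median size of the replicate 2 departure, the log2 of replicate 2 minus the mean of replicates 1 and 3, was 1.02 in the overexpressor and 1.08 in the empty vector line over the 11 chlorophyll genes. The median size of the change between lines was 0.55 for the same genes and 0.30 for all genes. A single array against a mean of 2 varies more than a difference of means of 3. In both lines the departure exceeded the change between lines for 5 of the 11, GSA, CHLH, CHLG, PORB and CAO, or 45.5 percent against 42.7 percent of all genes. Of the 25 genes, 72 percent departed with the same sign in both lines, against 59.2 percent of all genes. For the 14 protease genes the median departure was 0.58 in the overexpressor and 0.27 in the empty vector line, and for all genes 0.42 in each line. In both lines replicate 2 was at least 2-fold higher for 3 of the 25 genes, CAO, CHLH and FTSH6, where 2.86 percent of all genes were. FTSH6 rests on values under background, and with those counted at background it was 1.35-fold higher in the overexpressor, which leaves 2 genes, against 2.65 percent of all genes. It was at least 2-fold lower in both for 2 genes, CHLG and NYC1, where 3.06 percent were (2.75 percent with values under background counted at background, the same 2 genes).

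CAO was 7.1-fold higher in replicate 2 of the overexpressor and 12.2-fold higher in that of the empty vector line. CHLH was 6.33-fold higher in the overexpressor and 4.53-fold higher in the empty vector line. Both genes were highest in replicate 2 whichever line was looked at. PORB was 1.48-fold higher in the overexpressor and 4.01-fold higher in the empty vector line. The gene for chlorophyll synthase went the other way: CHLG was at 5351, 2489 and 6009 in the overexpressor and at 3931, 1753 and 5358 in the empty vector line, with replicate 2 the lowest array of both. That was 2.27-fold lower in the overexpressor and 2.60-fold lower in the empty vector line. CHLD and GSA were 2.30-fold and 2.35-fold lower in replicate 2 of the overexpressor and 1.62-fold and 1.44-fold lower in that of the empty vector line. The subunits of magnesium chelatase thus departed in different directions, with CHLH up and CHLD down in replicate 2 of both lines, and CHLI 1.66-fold lower in the overexpressor and level in the empty vector line. CLPC1 and CLPC2 departed by at most 0.09 on the log2 scale.

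Of 7 clock genes, LHY and PCL1 had the largest replicate 2 departures, in opposite directions. LHY, a morning gene, was at 611, 18627 and 624 in the overexpressor and at 602, 5241 and 682 in the empty vector line. PCL1 was 13.4-fold lower in replicate 2 of the overexpressor and 14.97-fold lower in that of the empty vector line. The departures of PRR73, PRR95 and DTH7 were above 0 in both lines, from 0.16 to 2.31 on the log2 scale. GI departed by -0.17 in the overexpressor and -0.20 in the empty vector line, and PRR1 by -0.63 in the overexpressor and 0.49 in the empty vector line. GLK1, for a transcription factor that activates chlorophyll synthesis genes, was at 297, 2903 and 394 in the overexpressor and at 681, 11289 and 454 in the empty vector line. GLK2, for its relative, was at 1246, 3435 and 778 in the overexpressor and at 3461, 11949 and 2689.8 in the empty vector line. RNA integrity was read from the controls at the 3 prime and 5 prime ends of transcripts. Their log2 ratio averaged 1.79, 1.85 and 1.93 in the overexpressor and 1.44, 2.47 and 1.47 in the empty vector line, highest on empty vector replicate 2. Without both replicate 2 arrays, both overexpressor arrays lay above both empty vector arrays. In that setting, line and RNA integrity cannot be told apart. The part of RNA integrity, and that of sampling time, in these departures was not tested.

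**Figure D4:**
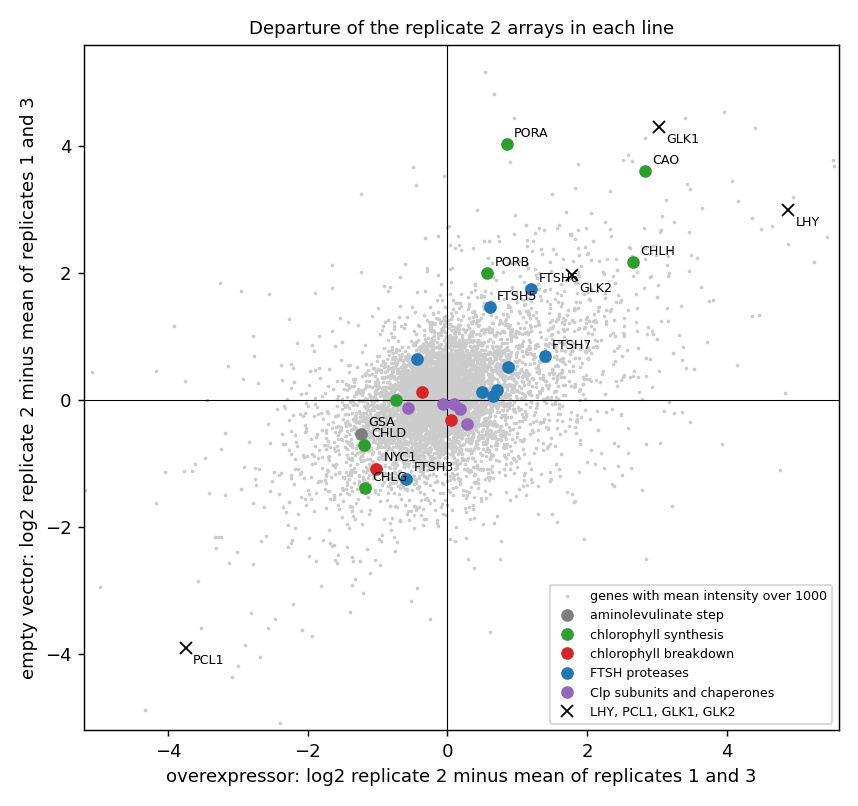
Departure of replicate 2 from the mean of replicates 1 and 3 on the log2 scale in the overexpressor (x axis) and the empty vector line (y axis), for the 25 genes by role, for genes with a mean intensity over 1000 (grey) and for LHY, PCL1, GLK1 and GLK2 (crosses). CAO and CHLH lie at the upper right with GLK1 and LHY, CHLG and NYC1 lie at the lower left, and CLPC1 and CLPC2 lie near the centre.

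Genes of neighbouring pathways, listed by name, had 0 calls between the lines when all 6 arrays were used (limma, adjusted p over all genes). Of all genes 0.519 percent passed, so 0 calls in lists this short say little. Of 6 other tetrapyrrole genes, 5 had changes below 0, and the smallest p was that of HEMD, for uroporphyrinogen III synthase, at -0.43 ± 0.28 (adjusted p = 0.569). HO1, for haem oxygenase, was the 1 gene above 0, at 0.21 ± 0.57. Of 5 photosystem and light-harvesting genes, PSAH, for a subunit of photosystem I, was at 15852, 12968 and 13451 in the overexpressor and at 20828, 30947 and 23008 in the empty vector line. Its lines did not overlap, and its log2 change was -0.81 ± 0.23 (adjusted p = 0.175). PSB28 had the smallest p of those above 0, at 0.18 ± 0.68, and turned to -0.36 without both replicate 2 arrays.

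Of 3 plastid regulators, all were below 0. OsSig2B, for a sigma factor of the plastid RNA polymerase, was at 1973, 1232 and 2357 in the overexpressor and at 3492, 3104 and 3844 in the empty vector line, without overlap. Its log2 change was -0.95 ± 0.28 (limma adjusted p = 0.181). GLK2 had -1.68 ± 0.70 (limma adjusted p = 0.337) and GLK1 -1.10 ± 1.32 (limma adjusted p = 0.773), with the replicate 2 arrays as given above. Without both replicate 2 arrays GLK2 had -1.62 (limma adjusted p = 0.0692) and GLK1 -0.68 (limma adjusted p = 0.263). A list for carbon fixation held 6 genes, of which FBP1 and RPEcyt are cytosolic forms by their synonyms and RBCS1 was under background on all 6 arrays. The other 3, RBCS, RCA and RPE, were below 0, and RPE, for ribulose-phosphate epimerase, had the smallest p, at -0.51 ± 0.21. RCA was at 7120, 41036 and 7878 in the overexpressor and at 20895, 41372 and 25344.5 in the empty vector line. It had -1.08 ± 0.67 (limma adjusted p = 0.543), and the log2 difference between the replicate 2 arrays was only -0.01. Without both replicate 2 arrays, the pair that hardly differed, RCA had -1.62 and passed (limma adjusted p = 0.0437). In that setting 1.33 percent of all genes passed. There RPE had -0.58 and RBCS -0.13, and neither passed (limma adjusted p = 0.149 and 0.734). Both EIL1 genes, for ethylene signalling factors, were below 0, with EIL1A at -0.52 ± 0.24. Of 7 clock genes, 4 were below 0 and 3 above, with the smallest p for DTH7 below, at -0.39 ± 0.36, and for PRR95 above, at 0.50 ± 0.78.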

How the data were processed

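The values are probe set intensity on a linear scale as deposited by the authors. Leaving out the top and bottom 2 percent, the mean was 500.1 on all 6 arrays, and no source used here names the software. The description label of every array speaks of the empty vector, so lines were taken from the titles. Controls (187 of 57381 probe sets) were left out, and 22436 probe sets with 1 gene in the platform annotation covered 17905 genes. A gene's value is that of its probe set with the highest mean log2(intensity + 16). Of the 25 representatives, 9 are of types not specific to 1 transcript, 5 of type _a, 2 of type _s and 2 of type _x. limma 3.58.1 in R 4.3.3 (lmFit, eBayes with trend, 2-sided) fitted the lines on all 57194 rice probe sets, and p-values were adjusted over genes. The fit was also run on simulated data with added changes and independent noise. Those data held no departure shared by the replicate 2 arrays, so that run says nothing about such departures.

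Deviations of arrays of the same replicate number correlated at 0.312, 0.4 and 0.244 over genes, each over 0.1, so the number was taken to pair arrays and a fit with it as a block was run. Arrays of different numbers correlated at -0.412 to 0.273, the highest for overexpressor 1 with empty vector 3, so replicates 1 and 3 are not set apart by number. With the block, 234 genes passed in place of 93.

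Array values are given for genes without overlap and, per role, for the brightest and those with the smallest p. CAO, CHLG, RCA and the replicate 2 genes were added after their values were seen. Members and lists were chosen with earlier results of these data known. These names were left out of lists as synonyms of other genes: FC1 (CAD7), PSA (an aminopeptidase) and NAP1.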

Additional observations from a re-analysis of the deposited data

How the results depend on the processing

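The count of the 25 genes that passed, 0, was 1 with replicate 2 as a batch term (NYC1) and 0 under the other alternatives, single arrays left out included. The count over all genes, 93, was 494 with a batch term for replicate 2, 239 when both of its arrays were left out, 234 with the replicate block, 169 after median centring and 1 by the ordinary test; without single arrays it was 4 to 35. The 6 genes whose lines did not overlap (24 percent, against 21.2 percent of all genes) became 16 (64 percent against 51.8) without both replicate 2 arrays and 7 to 11 (28 to 44 percent against 27.5 to 35.6) without single arrays, since fewer arrays separate more easily. The median change, -0.18, kept its direction and was -0.35 to -0.13 without single arrays. Of 393 values of single genes under alternatives, 370 kept direction and side of the threshold, and 13 of the 25 genes never changed direction. With the mean of all probe sets, GSA turned to 0.011 and CHLH to 0.12; each has a dim extra probe set. After quantile normalization FTSH2, CLPC1 and CLPC2 turned to 0.054, 0.010 and 0.10, and without both replicate 2 arrays NOL and FTSH4 turned to 0.0053 and 0.19; the cause was not tested. Without single arrays, CHLH ranged from -1.002 to 0.61, CHLG from -0.090 to 0.76, CAO from -0.12 to 2.03, NOL from -0.40 to 0.035, FTSH4 from -0.30 to 0.050, FTSH5 from -0.19 to 0.56, FTSH7 from -0.64 to 0.070 and FTSH1 from -0.46 to 0.067. The replicate block changed no call of the 25 genes. FTSH6 ranged from -1.33 to -0.018 over its alternatives. An alternative chosen after seeing the data, values under background counted at background, left 2 of 3 genes at least 2-fold higher in replicate 2 of both lines, and 2 of 2 lower. CLPC3, PORA and FTSH6 are limited by signal.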
